A study of Mus musculus with 6 samples.

Results

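The 36 genes described here encode the enzymes and carriers by which a heart cell takes up, activates, imports and oxidises fatty acids. They were found by gene name among the 55401 genes of the deposited table, and each name matched 1 gene. They were grouped by role into uptake and binding (3 genes), activation (4), thioesterases (3), the carnitine shuttle (4), control of malonyl-CoA (2), acyl-CoA dehydrogenases (5), hydration to thiolysis (5), auxiliary enzymes for unsaturated chains (3), electron transfer (3), peroxisomal enzymes (2) and uncoupling proteins (2). The data were poly(A) RNA sequencing libraries of whole hearts from 6 C57BL/6 mice aged 6 to 8 weeks. In one group, labelled CON, 3 mice served as controls, and in the other, labelled AngII, 3 mice received angiotensin II (Ang II), a peptide hormone that constricts vessels and raises blood pressure. The labels name no transgene or deletion in either group and give neither the dose nor the duration of Ang II. The title of the series also concerns corynoline and PPARα, and all 6 samples used here are labelled CON or AngII.

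The adult heart draws most of its ATP from fatty acids. A long-chain fatty acid is joined to coenzyme A, carried across the mitochondrial membranes as an acylcarnitine, and shortened in rounds of dehydrogenation, hydration, a second dehydrogenation and thiolysis. Each round passes electrons to the respiratory chain and releases acetyl-CoA. Many of these genes are known targets of PPARα and its coactivators, and their expression is known to fall in failing hearts.

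Library depth ran from 51202916 to 63564869 estimated counts, of which mitochondrially encoded genes took 35.8% to 47.6%. Ang II replicate 1 stood apart. Its genes deviated from the control mean with an interquartile range of 0.85 on the log2 scale, against 0.43 to 0.45 in Ang II replicates 2 and 3. In the controls it was 0.22 to 0.27, but each control is part of that mean, which narrows its range. Over the 3709 genes of at least 20 CPM (counts scaled to a common library total), Spearman's rho across genes between the deviation from the other 5 libraries and transcript length was -0.48 in Ang II replicate 1 and -0.02 to 0.50 in the others. Over the 36 genes, which share the libraries and are not independent, the same rho was -0.25 in that heart, -0.09 and -0.09 in the other Ang II hearts, and 0.34 to 0.38 in the controls. After a correction for transcript length in each library, chosen after the data were seen, the median log2 change of the 36 genes was 0.07, with 23 of 36 (63.9%) above 0, beside 50.2% of all genes, and 0 called, beside 0.0896% (limma). Results that rest on Ang II replicate 1 are given with and without it.

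The tissue label was checked against marker genes, since the extraction text also speaks of an adipose type. All 8 cardiomyocyte markers exceeded 1 CPM in all 6 libraries, and their summed level was 38721 to 44171 CPM in controls and 48824 to 53246 CPM in Ang II hearts. The members did not move as one in Ang II replicate 1, where Myh6 and Tnnt2 were the lowest and Mb and Myl2 the highest of the 6 hearts. White adipocyte markers summed to 2.93 to 3.65 CPM in controls and to 0 to 1.14 CPM in Ang II hearts, with Lep at 0 throughout. Ucp1, the defining gene of brown fat, was at 0 in all 6 libraries. The summed brown adipocyte, skeletal muscle and macrophage lists were highest in Ang II replicate 1, at 2093, 2709 and 230 CPM, beside 705 to 863, 1548 to 1702 and 104 to 141 CPM in the other 5 hearts, and a few genes made up each sum. Of the brown adipocyte list, Cox7a1 and Cox8b read 1134 and 931 CPM in that heart, beside 385 to 455 and 294 to 386 CPM in the others. Cidea was also highest there, at 26.7 CPM beside 16.6 to 21.8 CPM, while Ppargc1b was lowest there, at 0.805 CPM beside 3.98 to 4.78 CPM. The skeletal muscle sum was nearly all Ckm, which heart muscle also expresses, at 2707 CPM beside 1547 to 1702 CPM. It was the 1 gene of the 6 above 1 CPM in every library, and Myh2 was at 0 in all. Of the macrophage list, C1qa, C1qb and Csf1r were highest in Ang II replicate 1, and Adgre1, Cd68 and Mrc1 were within the range of the other hearts. Fibroblast markers summed to 196 CPM in that heart and to 432 to 485 CPM in the others, with all 6 markers lowest there. Most of that gap was Dcn, at 69.2 CPM beside 279 to 327 CPM, while Col1a2 read 52.5 CPM beside 54.8 to 62.5 CPM. Endothelial markers summed to 671 to 702 CPM in controls and 523 to 586 CPM in Ang II hearts, though Egfl7 was highest in Ang II replicate 1, and erythroid markers to 802 to 2037 CPM and 443 to 593 CPM. In whole-heart RNA, fewer cells of a type and less RNA per cell cannot be told apart. The part of cell composition in the results was not tested.

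Levels of the 36 genes in the control hearts ran from trace to very high. On the deposited FPKM scale (fragments scaled by gene length and by library total), the highest was Fabp3, the heart fatty acid-binding protein, at 2539.5 ± 517 (SD, n = 3). Next came Acaa2, the last enzyme of the mitochondrial spiral, at 357 ± 69.6 FPKM, the electron carrier subunit Etfb at 318 ± 74.1, the thioesterase Acot13 at 309 ± 43.6 and the long-chain dehydrogenase Acadl at 218 ± 62.3. On this scale Acaa2 was above Etfb and Acot13 in each of the 3 control hearts, while Etfb was above Acot13 in control 2 alone, so the order of those 2 was not resolved. In all, 24 of 36 genes had a control mean of at least 10 FPKM, and the lowest was the acyl-CoA synthetase Acsl3 at 0.430 FPKM. The SDs in FPKM also carry differences in scaling between libraries. On the CPM scale the same controls varied less for their level, with Fabp3 at 2281 ± 65.9 CPM and Acaa2 at 591 ± 17.8 CPM.

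These FPKM levels depend on which gene length divides the counts. Implied gene lengths in the deposited table came within 1% of the summed length of all annotated exons for 98.0% of 7455 genes with at least 500 counts, and within 1% of the principal transcript for 12.2%. Genes whose annotated exons far exceed the principal transcript thus read lower on the FPKM scale. Echs1, the enoyl-CoA hydratase, has 8286 bases of annotated exon and a principal transcript of 1557 bases, and its control level was 16.6 FPKM as deposited and 88.3 FPKM when rescaled to that transcript. Hadhb went from 49.7 to 160.05 FPKM, Hadh from 47.5 to 132 FPKM, and Etfdh from 28.2 to 89.1 FPKM. Cpt1b, with 3372 bases of exon and a principal transcript of 2895 bases, went from 88.9 to 104 FPKM and moved from rank 8 to rank 13 of the 36. Etfb went from 318 to 415 FPKM and from rank 3 to rank 2, above Acaa2, which stayed at 357 FPKM. Fabp3 ranked first and Acsl3 last under both lengths. The choice of divisor cancels in a comparison of hearts, since the ratio of FPKM to count, scaled by Fabp3, varied by at most 1.37% between libraries for any of the 36 genes. That does not remove the relation between transcript length and the deviation of a heart given above.

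**Figure D1:**
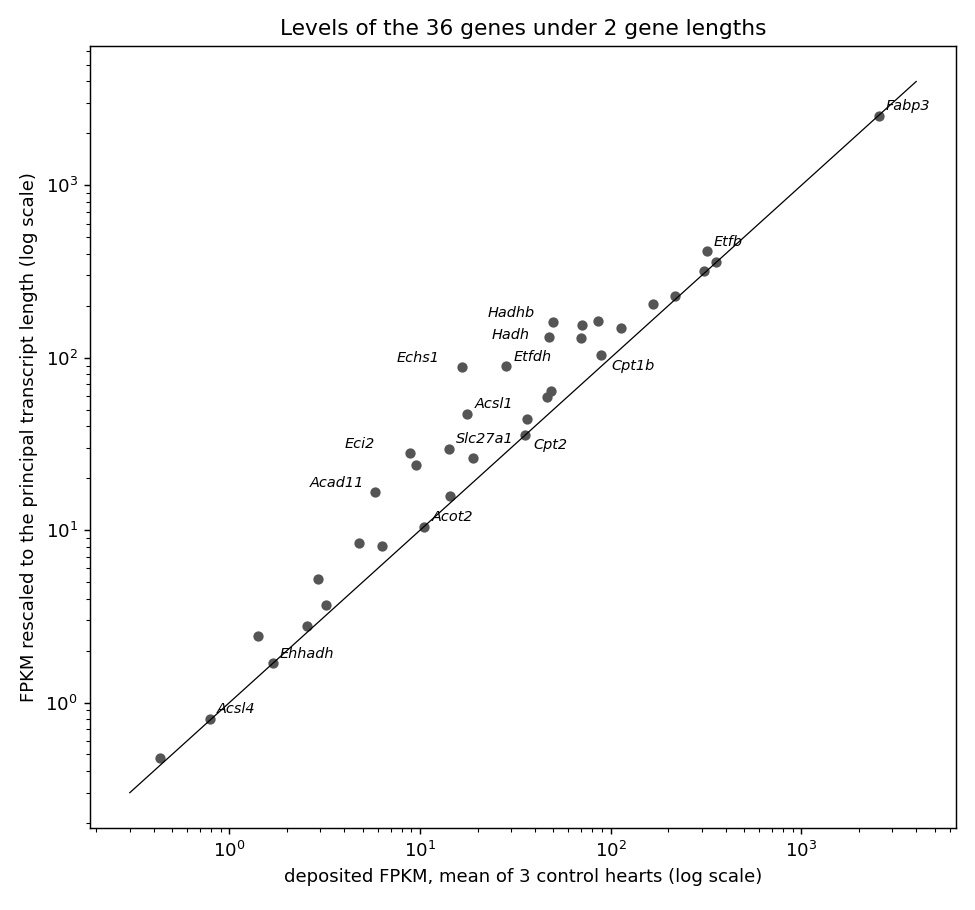
Control level of each of the 36 genes (points, mean of 3 control hearts) as deposited in FPKM (x axis, log scale) against the same level rescaled to the length of the principal transcript (y axis, log scale), with the line of equality. Echs1 lies farthest above the line, at 16.6 against 88.3 FPKM, and Fabp3 lies on it at 2539.5 FPKM.

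With all 6 hearts, none of the 36 genes differed between Ang II and control hearts at an adjusted p under 0.05 (edgeR quasi-likelihood test, Benjamini-Hochberg over all 16759 genes tested). Across all genes 6 passed, or 0.0358%, so the test made few calls anywhere. All 36 genes passed the filter on low counts. At an unadjusted p under 0.05, 1 gene, Cpt2, was higher in Ang II hearts, which is 2.78% of the 36 against 3.57% of all genes, and 0 were lower against 3.94%. DESeq2 on the same counts called Cpt2 alone of the 36 (2.78%) and 276 of all genes (1.65%). The median log2 change of the 36 was 0.09, beside 0.01 over all genes tested, and 26 of 36 (72.2%) were above 0, beside 50.9%.

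Among the Ang II hearts, replicates 2 and 3 were close to each other and replicate 1 stood apart from both. In Ang II replicates 2 and 3 the 36 genes had median deviations from the control mean of 0.23 and 0.22 (log2), and in Ang II replicate 1 of -0.22. Both replicate 2 and replicate 3 stood above every control for 23 of 36 genes (63.9%), beside 18.5% of all genes, and below every control for 2 (Acsl5 and Etfb), beside 17.6%. Ang II replicate 1 was the lowest of the 6 hearts for 18 genes (50%, beside 31.6% of all genes) and the highest for 6 (16.7%, beside 30.9%). For 5 genes it lay at least 2-fold below the mean of the other 5 hearts (13.9%, beside 15.5%): Crat, Hadhb, Ucp3, Acadm and Etfa.

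**Figure D2:**
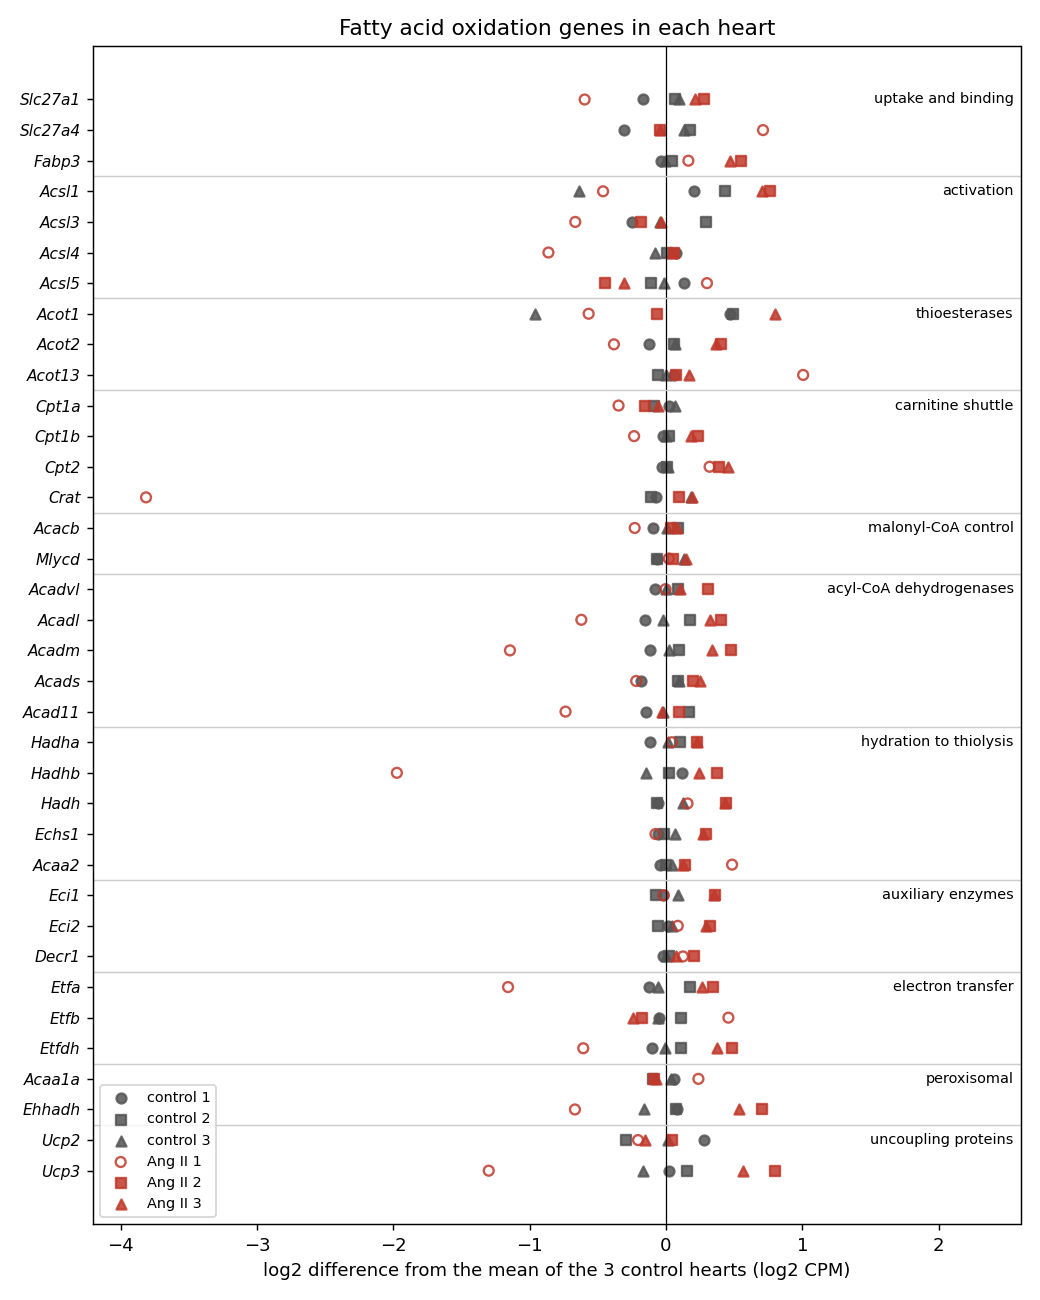
Log2 difference of each gene in each heart from the mean of the 3 control hearts (x axis, log2 CPM), with controls in grey, Ang II hearts in red and Ang II replicate 1 as open circles, grouped by role. Ang II replicates 2 and 3 lie to the right of all controls for 23 of 36 genes, and the open circles scatter from Crat on the far left to Acot13 on the right.

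Without Ang II replicate 1, the comparison rests on 2 Ang II hearts against 3 controls. The median log2 change of the 36 genes was then 0.22, beside -0.01 over all genes, and 29 of 36 (80.6%) were above 0, beside 48.6%. EdgeR called 0 of the 36 at an adjusted p under 0.05 and 129 of all genes (0.73%). At an unadjusted p under 0.05, 15 of 36 were higher (41.7%, beside 7.75% of all genes) and 1, Acsl5, was lower (2.78%, beside 7.6%). DESeq2 without that heart, an alternative chosen after the data were seen, called 12 of 36, all higher (33.3%, beside 4.09% of all genes higher). They were Fabp3, Acot2, Cpt1b, Cpt2, Acadm, Hadh, Echs1, Eci1, Eci2, Etfdh, Ehhadh and Ucp3, which span 9 of the 11 roles. Of the 4 scalings run, quantile normalisation of FPKM turned the direction of the median with all 6 hearts, to -0.09 with 12 of 35 genes (34.3%) above 0, beside 50% of all genes. Without Ang II replicate 1 the median was above 0 under all 4, at 0.22 by trimmed mean of M-values, 0.23 by median of ratios, 0.38 by library totals alone (beside 0.16 over all genes) and 0.18 by quantiles. In the last case 28 of 35 (80%) were above 0, again beside 50% of all genes.

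**Figure D3:**
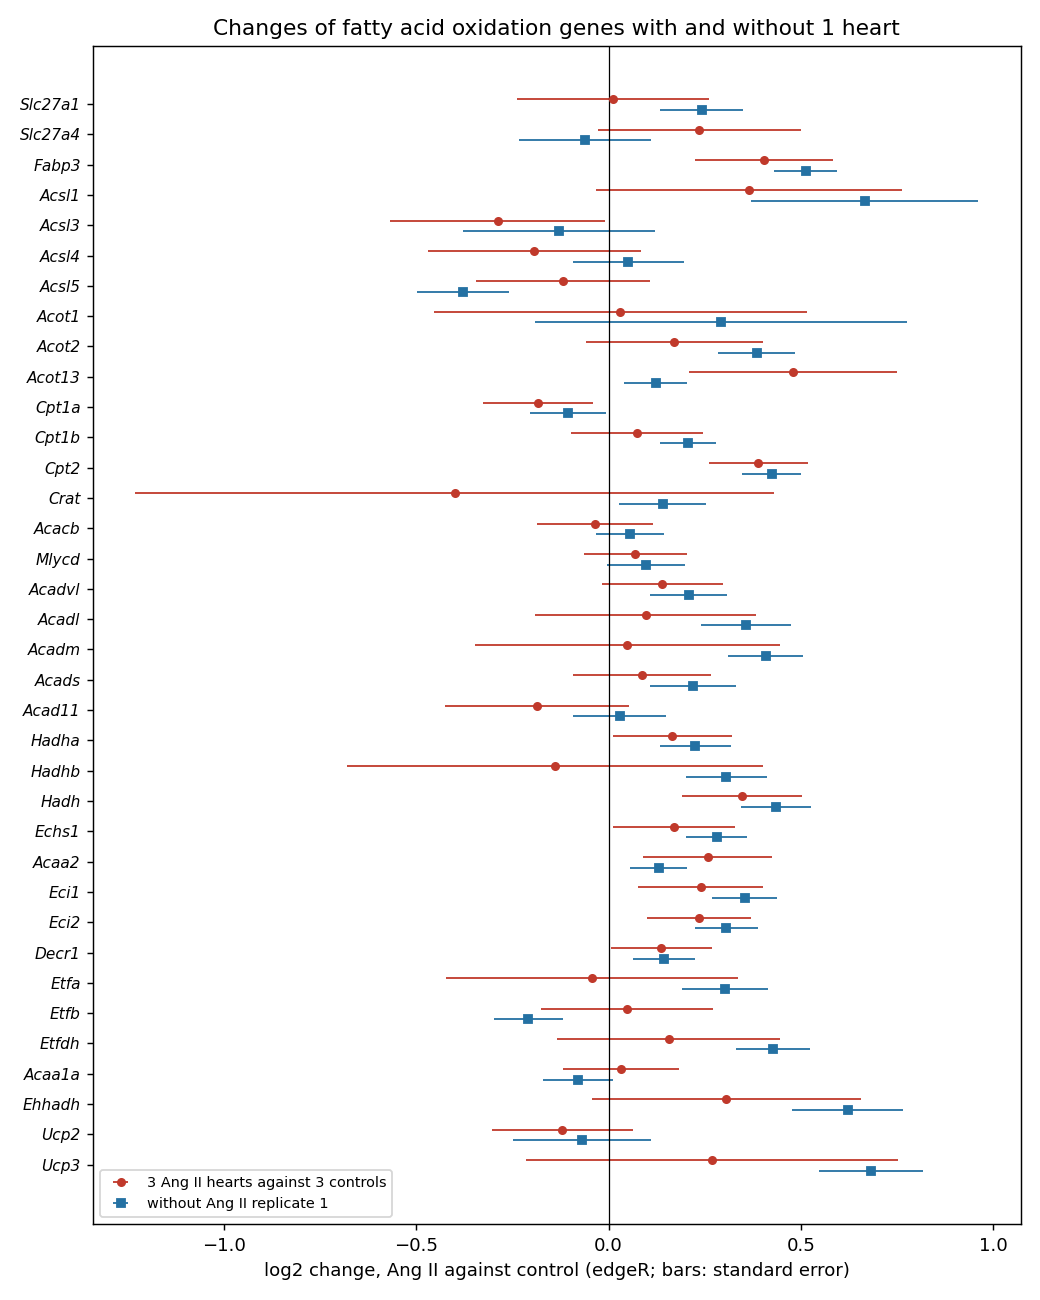
Log2 change of each gene, Ang II against control, with its standard error (edgeR), for 3 Ang II hearts against 3 controls (red circles) and without Ang II replicate 1 (blue squares). The error bars of Crat, Hadhb, Acadm, Etfa and Ucp3 shrink most when that heart is left out, and Cpt2 stays near 0.39 to 0.42 in both.

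Groups did not overlap for 7 genes, all higher in Ang II hearts: Fabp3, Acot13, Cpt2, Hadh, Acaa2, Eci2 and Decr1. That is 19.4% of the 36, beside 7.97% of all genes. No gene of the 36 was lower in every Ang II heart than in every control, beside 9.21% of all genes. Of these 7, Acot13 and Acaa2 had their highest value in Ang II replicate 1, and the other 5 had their lowest or middle Ang II value there.

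Among the genes of uptake and binding, Fabp3 alone separated the 2 groups of hearts. Fabp3, which ferries fatty acids through the cytosol, read 2218, 2349 and 2275 CPM in control hearts 1, 2 and 3 and 2555, 3342 and 3157 CPM in Ang II hearts 1, 2 and 3. Every Ang II heart lay above every control, with the smallest step in replicate 1. On the log2 scale this was 0.40 ± 0.18 (SE), and edgeR gave an adjusted p of 0.675. Without Ang II replicate 1 it was 0.51 ± 0.08, with an adjusted p of 0.0721 by edgeR and 1.46e-08 by DESeq2. Slc27a1, a fatty acid transport protein with acyl-CoA synthetase activity, read 79.8, 93.9 and 95.6 CPM in controls and 59.2, 108 and 104 CPM in Ang II hearts. Its 2 highest and its lowest values were all in Ang II hearts, and the log2 change of 0.01 ± 0.25 averaged over them. Slc27a4, a second transport protein, had a mean of 12.04 ± 2.12 CPM (SD, n = 3) in controls and 14.2 ± 4.59 CPM in Ang II hearts, with the groups overlapping. Ang II replicate 1 read 19.5 CPM, while replicates 2 and 3 read 11.5 CPM each, within the control range of 9.60 to 13.5 CPM. The log2 change of Slc27a4 was 0.24 ± 0.26 with all hearts and -0.06 ± 0.17 without replicate 1.

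The 4 acyl-CoA synthetases, which join fatty acids to coenzyme A, showed no common direction. Acsl1, the main heart form, read 222, 259 and 124 CPM in controls and 139.8, 326 and 314 CPM in Ang II hearts. Control 3 and Ang II replicate 1 were both low, the other 2 Ang II hearts were the highest, and the groups overlapped. In log2 terms Acsl1 differed by 0.37 ± 0.40 (adjusted p = 0.842, edgeR) and 0.67 ± 0.30 without Ang II replicate 1. Acsl5 read 18.8, 15.9 and 17.0 CPM in controls and 21.2, 12.6 and 13.9 CPM in Ang II hearts. Ang II replicate 1 was the highest of all, and the other 2 Ang II hearts were below every control. The Acsl5 change was -0.12 ± 0.23 in log2 with all hearts and -0.38 ± 0.12 without that one (adjusted p = 0.234, edgeR). Acsl4, which prefers arachidonic acid, read 4.92, 4.70 and 4.43 CPM in controls and 2.57, 4.88 and 4.82 CPM in Ang II hearts. Acsl3, a form found at lipid droplets, read 1.68, 2.46 and 1.94 CPM in controls and 1.26, 1.76 and 1.95 CPM in Ang II hearts. Both overlapped between groups and were lowest in Ang II replicate 1.

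Thioesterases release the fatty acid from coenzyme A again. Acot2, the mitochondrial form, read 22.9, 26.0 and 26.1 CPM in controls and 19.2, 33.0 and 32.3 CPM in Ang II hearts. Replicates 2 and 3 were above and replicate 1 below every control. The log2 change was 0.17 ± 0.23 with all hearts and 0.39 ± 0.10 without Ang II replicate 1 (adjusted p = 0.171 by edgeR and 0.0209 by DESeq2). Acot13 read 262, 243 and 253 CPM in controls and 507, 265 and 284 CPM in Ang II hearts. Here Ang II replicate 1 was the high one, at 1.94 times the mean of the other 5 hearts. The log2 change went from 0.48 ± 0.27 to 0.12 ± 0.08 when it was left out. Acot1, the cytosolic form, read 7.70, 7.79 and 2.85 CPM in controls and 3.75, 5.30 and 9.65 CPM in Ang II hearts, with control 3 the lowest and Ang II replicate 3 the highest of the 6 hearts.

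Acot1 and Acot2 lie 15616 bases apart on chromosome 12 and are near copies, so their reads can be exchanged by an aligner. Their coding sequences matched at 1181 of 1236 aligned bases (95.6%), and 52.6% of the 31-base words of Acot1 also occurred in Acot2. The split between them is uncertain for that reason. For the other gene pairs aligned (Cpt1a with Cpt1b, Acsl1 with Acsl5, Acsl3 with Acsl4, Ucp2 with Ucp3, Acadm with Acadl and Slc27a1 with Slc27a4), identity was 57.8% to 75.4% and no 31-base word was shared. The 60-base coding stretch in which the 2 thioesterases differ most is shown because a read can be given to one of them only where they differ. It was read from the GENCODE M21 transcripts, with positions counted from the start codon, 823 to 882 in Acot1 and 946 to 1005 in Acot2, and capitals mark the 13 bases that differ.
Acot1: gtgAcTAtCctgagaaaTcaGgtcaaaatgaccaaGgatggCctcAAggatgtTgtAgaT
Acot2: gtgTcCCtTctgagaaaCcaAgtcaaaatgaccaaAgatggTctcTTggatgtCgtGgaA

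The carnitine shuttle held the gene with the lowest unadjusted p of the 36. Cpt2, which turns acylcarnitines back into acyl-CoA at the inner mitochondrial membrane, read 90.8, 93.2 and 93.6 CPM in controls and 115, 121 and 127 CPM in Ang II hearts. The controls lay within 3 CPM of each other, and the lowest Ang II heart, replicate 1, was well above them. The fold was 1.31, or a log2 change of 0.39 ± 0.13 (unadjusted p = 0.0197, adjusted p = 0.560, edgeR). DESeq2 gave Cpt2 an adjusted p of 0.0359, and without Ang II replicate 1 the adjusted p was 0.0933 by edgeR and 1.61e-06 by DESeq2. Its log2 change stayed between 0.35 and 0.42 when any 1 heart was left out, and ran from 0.17 to 0.45 over 18 settings of the processing. When a heart other than Ang II replicate 1 was left out, its unadjusted p was no longer under 0.05 (edgeR).

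Cpt1, the enzyme that malonyl-CoA inhibits, exists as a muscle form, Cpt1b, and a liver form, Cpt1a. Cpt1b read 324, 333 and 327 CPM in controls and 279, 385 and 372 CPM in Ang II hearts, so replicate 1 was the lowest heart and replicates 2 and 3 the highest. The Cpt1b change was 0.07 ± 0.17 in log2 with all hearts and 0.21 ± 0.07 without replicate 1 (adjusted p = 0.271 by edgeR and 0.0323 by DESeq2). Cpt1a read 25.0, 23.1 and 25.8 CPM in controls and 19.3, 22.2 and 23.6 CPM in Ang II hearts, overlapping only through control 2 and Ang II replicate 3. Beside Cpt1a stands a trace of liver transcripts: hepatocyte markers summed to 85.5, 0.870 and 40.4 CPM in controls 1, 2 and 3 and to 0.897 to 1.62 CPM in Ang II hearts, and their part in the result was not tested. Crat, which buffers acetyl-CoA as acetylcarnitine, read 259.6, 253 and 309 CPM in controls and 19.4, 291 and 312 CPM in Ang II hearts. Ang II replicate 1 had 844 counts of Crat, 0.0681 of the mean CPM of the other 5 hearts. This deviation from the control mean, -3.78 on the log2 scale, was the largest of the 36 genes in any heart. With it the log2 change of Crat was -0.40 ± 0.83 and without it 0.14 ± 0.11.

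Malonyl-CoA is made by Acacb and removed by Mlycd, and neither gene differed between groups by more than the hearts varied. Acacb read 140.3, 159 and 150.2 CPM in controls and 128, 153 and 158 CPM in Ang II hearts. Mlycd read 58.4, 58.3 and 66.8 CPM in controls and 61.9, 63.1 and 67.5 CPM in Ang II hearts. The log2 changes were -0.03 ± 0.15 and 0.07 ± 0.13, and both groups overlapped.

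The acyl-CoA dehydrogenases, which open each round for chains of a given length, stood above every control in both Ang II replicates 2 and 3 for 4 of 5 genes (beside 18.5% of all genes). Acadvl, for very long chains, read 456, 513 and 482 CPM in controls and 482, 598 and 519 CPM in Ang II hearts. Its groups overlapped through replicate 1. Acadl, for long chains, read 423, 532 and 462 CPM in controls and 306, 621 and 589 CPM in Ang II hearts. Acadm, for medium chains, read 335, 388 and 370.3 CPM in controls and 165, 506 and 461 CPM in Ang II hearts. In both, replicate 1 was the lowest heart and replicates 2 and 3 were above all controls. For Acadm the log2 change was 0.05 ± 0.40 with all hearts and 0.41 ± 0.10 without Ang II replicate 1 (adjusted p = 0.149 by edgeR and 0.00987 by DESeq2). For Acadl it went from 0.10 ± 0.29 to 0.36 ± 0.12, with adjusted p of 0.241 by edgeR and 0.102 by DESeq2. Acads, for short chains, had means of 89.0 ± 9.28 CPM in controls and 94.5 ± 15.9 CPM in Ang II hearts. Acad11 had means of 61.6 ± 7.00 and 54.2 ± 15.3 CPM, and overlapped in every heart but the low replicate 1.

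Hydration, the second dehydrogenation and thiolysis of long chains are carried out by the mitochondrial trifunctional protein, whose subunits are Hadha and Hadhb. Hadha read 619, 722 and 677 CPM in controls and 692, 786 and 786 CPM in Ang II hearts. Hadhb read 391, 366 and 326 CPM in controls and 91.7, 467 and 425 CPM in Ang II hearts. Ang II replicate 1 was within the control range for the first subunit and at 0.232 of the mean of the other 5 hearts for the second. The log2 change of Hadha was 0.17 ± 0.15 with all hearts and 0.23 ± 0.09 without replicate 1. That of Hadhb went from -0.14 ± 0.54 to 0.31 ± 0.11 (adjusted p = 0.265 by edgeR and 0.117 by DESeq2).

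The 2 subunit genes lie head to head on chromosome 5 with 85 bases between their starts in the deposited coordinates. That stretch, chr5:30155163-30155247 on the plus strand of GRCm38.p6, is shown because it lies between the deposited starts of both subunit genes. Its letters were read from the RefSeq promoter table, in which both starts lie further inside the genes and the stretch between them is longer, and capitals mark the 2 GC boxes (GGGCGG) found in it.
Hadha-Hadhb gap: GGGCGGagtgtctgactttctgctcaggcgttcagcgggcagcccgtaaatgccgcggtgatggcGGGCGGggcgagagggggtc
Of its bases, 69.4% are G or C. Among the 250 bases before each start, searched on both strands, a GC box occurred in 21 of 34 promoters of the 31 genes matched (61.8%), beside 32.7% of 32851 promoters in the table. Those 32851 promoters were not limited to expressed genes, while the genes matched all passed the filter on low counts. The 2 shares therefore do not compare like with like. A PPAR-type direct repeat (AGGNCA followed after 1 base by AGGNCA) was in 0 of the 34, beside 0.338% of all promoters, and the estrogen-related receptor element TCAAGGTCA in 0, beside 0.387%. A match describes letters in this window only, and its absence says nothing of a factor's binding elsewhere.

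The remaining mitochondrial enzymes of the spiral, Hadh, Echs1 and Acaa2, all had higher means in Ang II hearts. Hadh, for short and medium hydroxyacyl chains, averaged 259 ± 19.3 CPM in controls and 329 ± 35.5 CPM in Ang II hearts, with no overlap. Its log2 change was 0.35 ± 0.16 (adjusted p = 0.676, edgeR), and 0.44 ± 0.09 without Ang II replicate 1 (adjusted p = 0.117 by edgeR and 0.000912 by DESeq2). Echs1 averaged 150.2 ± 6.56 and 169 ± 23.1 CPM, with overlap. Its log2 change was 0.17 ± 0.16 with all hearts and 0.28 ± 0.08 without Ang II replicate 1 (adjusted p = 0.195 by edgeR and 0.0147 by DESeq2). Acaa2, the thiolase, read 573, 591 and 608 CPM in controls and 827, 649 and 643 CPM in Ang II hearts. Every Ang II heart was above every control, most of all replicate 1, and the log2 change went from 0.26 ± 0.17 to 0.13 ± 0.07 without it.

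The 3 auxiliary enzymes, which let the spiral handle double bonds, were all higher on average. Decr1, a dienoyl-CoA reductase, read 205, 209.8 and 207 CPM in controls and 226, 239 and 219 CPM in Ang II hearts. Its groups did not overlap, and its log2 change was 0.14 ± 0.13 (adjusted p = 0.823, edgeR). Eci1, an enoyl-CoA isomerase, averaged 162 ± 9.38 CPM in controls and 191 ± 27.1 CPM in Ang II hearts. Eci2, another isomerase, averaged 53.6 ± 1.92 and 63.1 ± 5.41 CPM, without overlap. With all hearts the log2 changes of Eci1 and Eci2 were 0.24 ± 0.16 and 0.24 ± 0.13. Adjusted p was 0.760 and 0.730 by edgeR and 0.736 and 0.619 by DESeq2. Without Ang II replicate 1 their log2 changes were 0.35 ± 0.08 and 0.31 ± 0.08. Adjusted p was then 0.00295 and 0.00548 by DESeq2 and 0.147 and 0.178 by edgeR.

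Electrons leave the dehydrogenases through the flavoprotein of Etfa and Etfb and reach ubiquinone through Etfdh. Etfa read 205, 253 and 215 CPM in controls and 100.1, 284 and 269 CPM in Ang II hearts. Etfb read 388, 435 and 387 CPM in controls and 553, 357 and 340.3 CPM in Ang II hearts. The 2 partners thus went opposite ways in Ang II replicate 1, with Etfa the lowest and Etfb the highest of the 6 hearts, and the other way round in replicates 2 and 3. Etfdh read 213, 248 and 229 CPM in controls and 151, 321 and 297 CPM in Ang II hearts. Its log2 change was 0.16 ± 0.29 with all hearts and 0.43 ± 0.10 without replicate 1 (adjusted p = 0.132 by edgeR and 0.00469 by DESeq2). For Etfa it went from -0.04 ± 0.38 to 0.30 ± 0.11, and for Etfb from 0.05 ± 0.22 to -0.21 ± 0.09, with adjusted p of 0.289 and 0.351 by edgeR without that heart.

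Peroxisomes shorten the longest chains, and their bifunctional enzyme Ehhadh was scarce in these hearts. Ehhadh read 5.84, 5.81 and 4.94 CPM in controls and 3.47, 9.00 and 8.01 CPM in Ang II hearts. Replicates 2 and 3 were above and replicate 1 below every control, and the log2 change was 0.31 ± 0.35 with all hearts and 0.62 ± 0.14 without replicate 1 (adjusted p = 0.145 by edgeR and 0.0107 by DESeq2). Ehhadh is abundant in liver, and the part of the liver transcripts given beside Cpt1a in its values was not tested. Acaa1a, a peroxisomal thiolase, averaged 46.3 ± 2.69 and 47.3 ± 6.24 CPM, with overlap.

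Of the uncoupling proteins of the mitochondrial inner membrane, Ucp3 was highest in Ang II replicates 2 and 3 and lowest in replicate 1, and Ucp2 stayed within the control range in all Ang II hearts. Ucp3, the muscle form, read 21.7, 23.8 and 19.1 CPM in controls and 8.71, 37.4 and 31.7 CPM in Ang II hearts. Replicates 2 and 3 were above every control and replicate 1 was at 0.326 of the mean of the other 5 hearts. Without that heart Ucp3 had the highest fold of the 36, 1.60, just above Acsl1 at 1.59, with a log2 change of 0.68 ± 0.13 (adjusted p = 0.112 by edgeR and 0.00131 by DESeq2), against 0.27 ± 0.48 with it. Ucp2, which lies 6904 bases from Ucp3 on chromosome 7 and is expressed in many cell types, read 45.1, 30.4 and 37.5 CPM in controls and 32.3, 38.3 and 33.4 CPM in Ang II hearts. Its controls spanned the Ang II hearts, and the log2 change was -0.12 ± 0.18.

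Ratios within a heart do not depend on its depth or scaling factor. The relation with transcript length given above need not cancel between genes of unlike length. Its part in the ratios was not tested. The principal transcripts of Cpt1b and Cpt1a, for example, are 2895 and 4317 bases long. On the FPKM scale 10 pairs were compared by two-sided exact permutation tests, in which 3 hearts against 3 cannot go below p = 0.1. Cpt1b over Cpt1a was 29.4, 32.7 and 28.8 in controls and 32.7, 39.4 and 35.7 in Ang II hearts. It was the 1 pair of the 10 whose groups did not overlap, with control 2 and Ang II replicate 1 alike to 3 digits. The mean log2 ratio differed by 0.25 (exact permutation p = 0.1, adjusted over the 10 pairs 0.667). Hadha over Hadhb was 1.20, 1.49 and 1.57 in controls and 5.71, 1.27 and 1.40 in Ang II hearts. Etfa over Etfb was 0.335, 0.369 and 0.353 in controls and 0.115, 0.504 and 0.501 in Ang II hearts. In both pairs of subunits Ang II replicate 1 lay outside the range of the other 5 hearts, and for Etfa over Etfb replicates 2 and 3 lay above every control. Ucp3 over Ucp2 was 1.08, 1.75 and 1.13 in controls and 0.602, 2.18 and 2.12 in Ang II hearts. Acsl1 over Acsl5 was 5.48, 7.58 and 3.38 in controls and 3.07, 12.02 and 10.5 in Ang II hearts. Both ratios were highest in Ang II replicates 2 and 3 and lowest in Ang II replicate 1. Acadm over Acadl was 0.406, 0.374 and 0.410 in controls and 0.276, 0.418 and 0.401 in Ang II hearts. The other four pairs, Acsl1 over Acsl3, Acsl1 over Acsl4, Acot2 over Acot1 and Acacb over Mlycd, differed by 0.64, 0.59, 0.07 and -0.11 on the log2 scale. Apart from Cpt1b over Cpt1a, the exact permutation p of the pairs ran from 0.2 to 1.

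**Figure D4:**
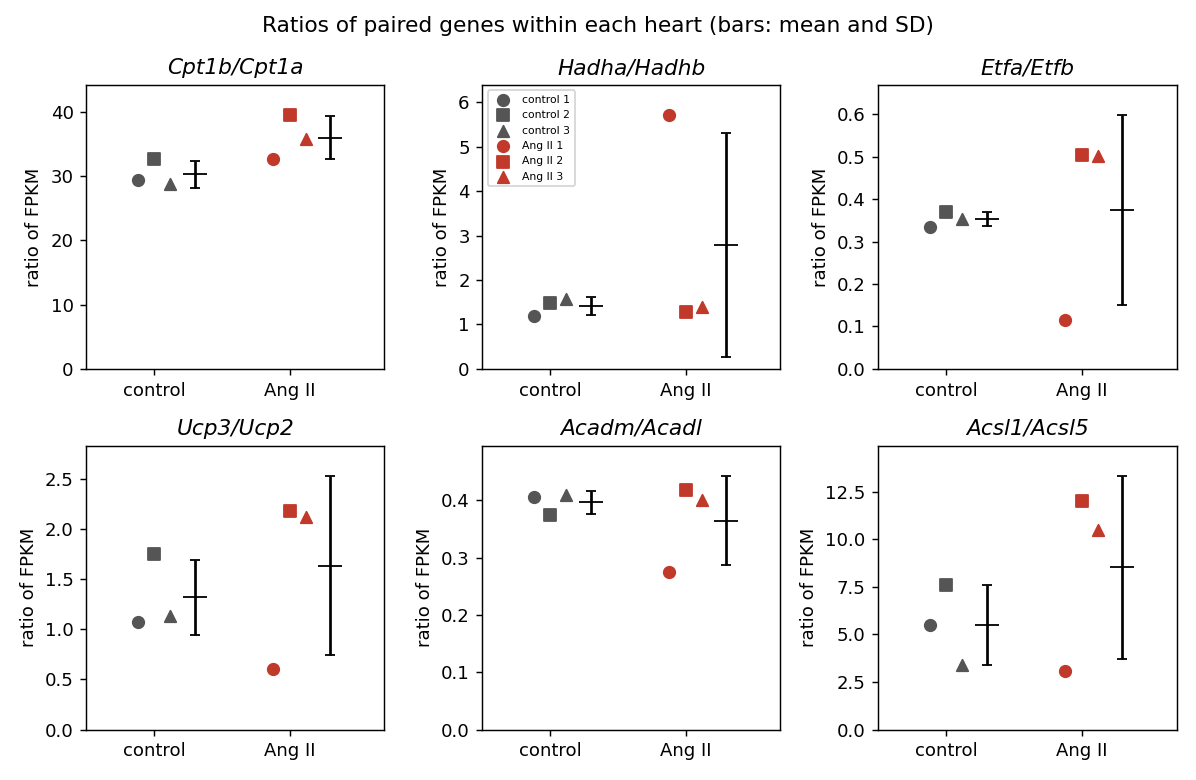
Ratio of deposited FPKM between 2 genes within each heart (y axes, no unit) for 6 of the 10 pairs, with controls in grey, Ang II hearts in red, 1 symbol per replicate number, and mean and SD beside each group. Ang II replicate 1 (red circle) lies above the other 5 hearts for Hadha over Hadhb (5.71). It lies below them for Etfa over Etfb (0.115), Ucp3 over Ucp2 (0.602), Acadm over Acadl (0.276) and Acsl1 over Acsl5 (3.07).

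Beyond the 36, 66 further genes of fatty acid metabolism were listed, 65 were found and 63 passed the filter. EdgeR called 0 of these 63 with all hearts, beside 0.0358% of all genes, and DESeq2 called 2 (3.17%, beside 1.65%). At an unadjusted p under 0.05, 2 were higher (3.17%, beside 3.57% of all genes) and 1 was lower (1.59%, beside 3.94%). Angptl4, a secreted inhibitor of lipoprotein lipase and a PPAR target, read 3.81, 2.33 and 3.18 CPM in controls and 9.56, 8.27 and 16.1 CPM in Ang II hearts, above every control in all 3. Its log2 change was 1.87 ± 0.32 (adjusted p = 0.269 by edgeR and 6.66e-05 by DESeq2). Pdk4, the kinase that shuts off pyruvate dehydrogenase, read 81.7, 112 and 91.9 CPM in controls and 64.8, 649.9 and 589 CPM in Ang II hearts. Like many of the 36 it was lowest in replicate 1 and highest in replicates 2 and 3, and its log2 change was 2.19 ± 0.75 with all hearts (adjusted p = 0.583, edgeR) and 2.70 ± 0.15 without replicate 1 (adjusted p = 0.00488, edgeR). Acad10, a little studied acyl-CoA dehydrogenase relative, read 8.16, 6.30 and 7.94 CPM in controls and 4.44, 3.81 and 4.26 CPM in Ang II hearts, below every control in all 3. Its log2 change was -0.84 ± 0.18 (adjusted p = 0.365 by edgeR and 0.0104 by DESeq2). Without Ang II replicate 1, 18 of the 63 were higher at an unadjusted p under 0.05 (28.6%, beside 7.75% of all genes) and 3 were lower (4.76%, beside 7.6%).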

How the data were processed

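Hearts of 3 control and 3 Ang II mice were sequenced as 1 library each. Per the submitters' processing notes, Bowtie 0.12.2, HISAT2 2.0 and StringTie 1.3.0 were used, with no role given, and the build named is mm8. Of 55141 gene IDs shared with GENCODE M21, however, 94.2% carry its GRCm38 coordinates, and positions here are on that build. The authors deposited, for each gene and library, a whole-number count and an FPKM value, and the count is taken here as an expected count since how it was made is not given in the sources used here. Per the file headers both were given for all 6 libraries, and the deposited zeros of FPKM were written as 0.0001.

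Counts as deposited, all whole numbers, were tested with edgeR 4.0.16 (quasi-likelihood, two-sided) in R 4.3.3 after trimmed mean of M-values scaling and filterByExpr, with Benjamini-Hochberg adjustment over 16759 genes and a threshold of 0.05. CPM used the scaled library sizes. DESeq2 1.42.0 and limma 3.58.1 (log2 of FPKM plus 0.5 or 0.1) were alternatives. The whole table was fitted and the 36 genes read from it. The tests were also run on simulated counts. These held no outlying library and no length effect, so they do not cover a case like Ang II replicate 1. The labels number the hearts within each group, so each is taken as a separate animal. Libraries of a group differed by far more than counting error (chi-square per degree of freedom 34.0 to 479), most in the pairs with Ang II replicate 1. That spread does not itself show that they came from separate animals. The labels give no batch.

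The 36 genes, their roles, the further pathway genes and the markers were chosen with earlier results of these data known. Values in every heart are printed for genes with an unadjusted p under 0.05, the 5 highest by FPKM, those in the 10 ratio pairs and leading genes of each role, and group values for the others. Of the further pathway genes, those with an unadjusted p under 0.05 are named. Leaving out Ang II replicate 1 together with DESeq2 or another scaling, rescaling levels to the principal transcript, the length correction and setting Ang II replicates 2 and 3 against every control were added after the data were seen. Promoters came from RefSeq and matched 31 of the 36 genes. Transcript lengths and coding sequences came from GENCODE M21. Figures were drawn with matplotlib 3.10.9.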

Additional observations from a re-analysis of the deposited data

How the results depend on the processing

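Deviations of same-numbered hearts correlated at 0.139, 0.171 and -0.060. The best partner of control 1 was Ang II replicate 1, of control 2 Ang II replicate 2 and of control 3 Ang II replicate 1. With 3 hearts a group, these values cannot settle whether the replicate numbers in the titles pair the hearts. With the replicate number as a block, edgeR called 0 genes in place of 6, and Slc27a1 was -0.034 and Acadm -0.10. Calls over all genes numbered 0 with library totals alone, 12 with no filter, 276 with DESeq2, 15 after length correction, and 3, 2 and 1 by limma with a pseudocount of 0.5, of 0.1 and with no filter. Leaving out 1 heart gave 0 to 129 calls by edgeR: 0 without any one control or Ang II replicate 3, 2 without Ang II replicate 2 and 129 without Ang II replicate 1. Without that heart DESeq2 called 1319, median-of-ratios scaling 124, library totals 47 and quantiles 79. Of the 36 genes, DESeq2 called 1 with all hearts and 12 without Ang II replicate 1, and the other settings 0. Their median log2 change was 0.045 to 0.22 when a heart was left out, 0.38 with library totals without Ang II replicate 1, and -0.093 with quantiles on all hearts.

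Log2 changes of single genes turned as follows, none of them called by edgeR, and the cause was not tested. With library totals alone Acacb was 0.025, Hadhb 0.011 and Etfa 0.059. With limma on FPKM and a pseudocount of 0.5, filtered or not, Acacb was 0.0099 and Acadm -0.059. A pseudocount of 0.1 gave Acacb 0.0099 and Acadm -0.060. With quantiles Slc27a1 was -0.14, Cpt1b -0.18, Mlycd -0.093, Acadvl -0.15, Acadl -0.21, Acadm -0.32, Acads -0.11, Hadha -0.095, Acaa2 -0.081, Eci1 -0.011, Decr1 -0.10, Etfb -0.28, Etfdh -0.073 and Acaa1a -0.089. After length correction Slc27a1 was -0.00092, Acacb 0.074, Acadm -0.11, Etfb -0.096 and Acaa1a -0.00046. By DESeq2 without Ang II replicate 1 Slc27a4 was -0.059, Acsl4 0.054, Crat 0.14, Acacb 0.058, Acad11 0.031, Hadhb 0.31, Etfa 0.30, Etfb -0.21 and Acaa1a -0.077.

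When 1 heart was left out, the log2 changes that crossed 0 were those of Slc27a1 -0.14 to 0.24, Slc27a4 -0.061 to 0.36, Acsl4 -0.34 to 0.051, Acsl5 -0.38 to 0.025, Acot1 -0.43 to 0.29, Cpt1b -0.011 to 0.21, Crat -0.82 to 0.14, Acacb -0.093 to 0.056, Acadl -0.078 to 0.36, Acadm -0.22 to 0.41, Acad11 -0.35 to 0.029, Hadhb -0.48 to 0.31, Etfa -0.28 to 0.30, Etfb -0.21 to 0.17, Etfdh -0.038 to 0.43, Acaa1a -0.081 to 0.089, Ucp2 -0.25 to 0.029 and Ucp3 -0.090 to 0.68. The log2 ratio differences that did so were Acot2 over Acot1 -0.23 to 0.59, Hadha over Hadhb -0.081 to 1.00, Etfa over Etfb -0.55 to 0.51, Ucp3 over Ucp2 -0.19 to 0.74 and Acadm over Acadl -0.25 to 0.046. Median-of-ratios scaling, leaving out mitochondrial genes and no filter turned none of the 36 genes, and no ratio turned with another pseudocount or with CPM.

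With 3 hearts a group edgeR made few calls, and a change that missed the threshold was not shown to be absent. Counts limit the lowest of the 36 genes most, among them Acsl3, Acsl4, Acot1 and Ehhadh.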
